A study of Mus musculus with 24 samples.

Results

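This report describes 8 genes of the retinoic acid pathway in differentiating male mouse embryonic stem cells (mESCs): the uptake receptor gene *Stra6*, the synthesis gene *Aldh1a2*, the binding protein genes *Crabp1* and *Crabp2*, the breakdown gene *Cyp26a1*, and the receptor genes *Rara*, *Rarb* and *Rarg*. They were chosen by name, for their part in the pathway, with earlier results of these data known. Each of the 8 matched 1 of the 25965 entries of the expression table. RNA-seq had been performed on C57/Bl6 mESCs that were weaned from 2i medium with LIF into a serum medium without LIF and left to differentiate with no lineage imposed. At day 2 the cells were transduced with a virus carrying a hairpin against *Smarcc1* (hairpins Smarcc1.6 and Smarcc1.7), a hairpin against *Smarca4* (hairpins Smarca4.4 and Smarca4.6) or the nonsilencing hairpin Nons, selected with puromycin from day 3, and harvested on days 4, 5, 6 and 7. SMARCC1 and SMARCA4 are a core subunit and the ATPase of the BAF chromatin remodelling complex. All groups shared the line, the transduction, the puromycin and the medium. There were 8 *Smarcc1* knockdown libraries and 8 *Smarca4* knockdown libraries, 1 per hairpin and day, and 4 Nons libraries of a single culture series, 1 per day. The second Nons series was not analysed here. The spread between Nons cultures was therefore not measured, and every value against Nons rests on 1 Nons library per day.

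The hairpins lowered their targets without removing them. *Smarcc1* was at 23.7% to 60.1% of the same-day Nons level in the 8 *Smarcc1* knockdown libraries, and *Smarca4* at 21.6% to 55.3% in the 8 *Smarca4* knockdown libraries. Libraries held 6829596 to 27472885 reads, the smallest being Smarca4.4 on day 5. Levels are given in rpm, a read number corrected for library size, and 3 reads were worth 0.109 to 0.439 rpm. The summed level of 10 pluripotency markers went from 3697 to 4209 rpm on day 4 to 696 to 1341 rpm on day 7, and all 10 fell between those days. Between the same days 3 of 5 tested endoderm, 2 of 4 mesoderm and 4 of 7 trophoblast markers rose, and of 7 neural markers 1 rose and 4 fell. Of all tested genes 35.7% rose and 28.8% fell. *Eomes* and *Hand1* are in both the mesoderm and the trophoblast list. The call of *Smarca4* itself in *Smarca4* knockdown was lost without Smarca4.6 (limma, adjusted *p* = 0.0685).

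Retinoic acid is made from vitamin A. Retinol enters the cell, in some tissues through STRA6, is oxidised to retinal and then, irreversibly, to retinoic acid by retinaldehyde dehydrogenases such as ALDH1A2. Inside the cell it is bound by CRABP1 and CRABP2, is degraded by cytochrome P450 enzymes of the CYP26 family, or enters the nucleus and binds receptors that work as pairs of a RAR and an RXR on DNA. Added retinoic acid drives mESCs out of pluripotency, and *Cyp26a1* and *Rarb* are among the genes it induces most directly in many cell types. The medium used here carried serum, which can contain retinoids, and no retinoic acid was named among the additions.

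RAR and RXR pairs bind direct repeats of a short core motif, and elements of this kind in the promoters of *Rarb* and *Cyp26a1* are textbook examples. The sequences upstream of the starts of these 2 genes are shown because, of the 7 genes with a start window in the reference, these were the ones with such a repeat. Each window ran from 250 bases before to 50 bases after an annotated start (RefSeq, GRCm38.p6, the build of the expression table). The core motif was spelled AGGTCA or AGTTCA or GGGTCA or GGTTCA and was searched on either strand, overlaps allowed. Capitals mark the core motifs of the repeat, and both stretches are written 5′ to 3′ on the strand of the gene. The first is chr14:16575498-16575589, minus strand, bases 113 to 22 before the *Rarb* start, and the second is chr19:37697716-37697807, plus strand, bases 92 to 1 before the *Cyp26a1* start.
Rarb: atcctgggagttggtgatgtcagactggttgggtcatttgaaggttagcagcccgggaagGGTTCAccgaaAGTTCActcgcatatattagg
Cyp26a1: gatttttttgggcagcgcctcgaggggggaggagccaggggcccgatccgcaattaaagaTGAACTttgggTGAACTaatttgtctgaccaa

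In *Rarb* the repeat lay on the strand of the gene, and in *Cyp26a1* on the opposite strand, so that its core motifs read TGAACT as printed. A direct repeat with a spacer of 5 bases was present in 32 of all 32851 start windows (0.0974%), with a spacer of 1 base in 0.222% and with a spacer of 2 bases in 0.268%. Windows were found for 7 of the 8 genes, 14 windows in all. None of the 14 held a repeat with a spacer of 1 or 2 bases. A core motif on its own was present in 43.7% of all windows, and among the 14 it was found in the windows of *Stra6*, *Rara* and *Rarg* as well as those of *Rarb* and *Cyp26a1*. No core motif of this spelling was found in the windows of *Aldh1a2* and *Crabp1*. Of the 31 genes with a window holding the 5-base spacer, 2 passed the filter for testing, *Cyp26a1* and *Blvrb*. A match of letters is a description and not a site of binding.

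**Figure D1:**
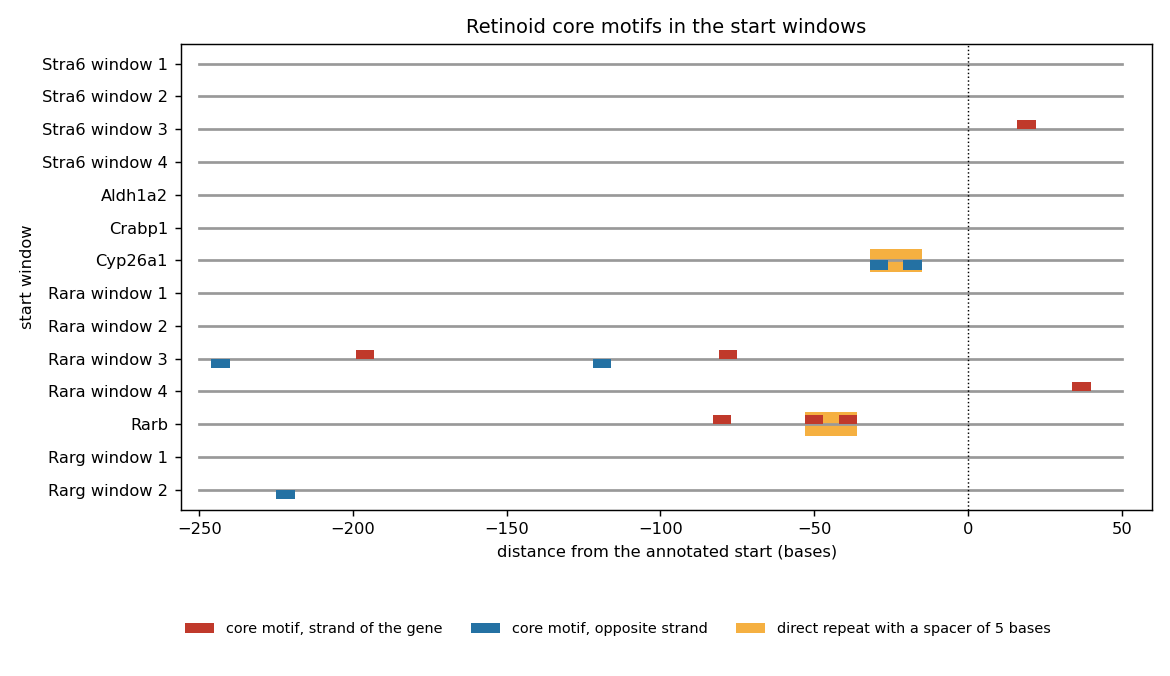
Map of the 14 start windows of 7 retinoic acid genes, with the distance from the annotated start in bases on the horizontal axis and 1 line per window, windows of a gene numbered by position. Core motifs on the strand of the gene are drawn above the line and those on the opposite strand below it; the 5-base direct repeat, shaded, appears only in *Rarb* (bases 53 to 37 before the start) and *Cyp26a1* (bases 32 to 16 before the start).

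To compare levels between the genes, rpm values were divided by exon length in kilobases. On this scale *Rarg* was highest, with a median of 17.5 rpm per kb over the 20 libraries, followed by *Crabp2* at 11.2, *Crabp1* at 5.36 and *Rara* at 3.65 rpm per kb. *Cyp26a1* (1.35 rpm per kb), *Aldh1a2* (0.626), *Stra6* (0.335) and *Rarb* (0.107) were far lower. The order was not the same in every library: *Rarg* was above *Crabp2* in 16 of 20 libraries, *Crabp1* above *Rara* in 14, *Cyp26a1* above *Aldh1a2* in 14 and *Aldh1a2* above *Stra6* in 14. *Rarb* had 1 to 33 reads per library and did not reach the mean of 1 rpm required for testing, so that 7 of the 8 genes were among the 13296 genes tested. *Aldh1a2* passed that filter through the knockdown libraries, since its mean in Nons alone was below it.

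Whether loss of a BAF subunit altered these genes was addressed by setting each knockdown against Nons, averaged over the 4 days (limma, Benjamini-Hochberg over all genes tested, threshold 0.05). In *Smarcc1* knockdown 2 of the 7 tested genes were called, *Aldh1a2* and *Cyp26a1*, both higher. In the same comparison 10.6% of all tested genes were called and 7.54% were called higher. In *Smarca4* knockdown 1 of 7 was called, *Aldh1a2*, higher, beside 6.71% of all genes in either direction and 4.75% higher. Since *Aldh1a2* passed the filter through the knockdown libraries, its calls are counted here with no reading of the test. The median log2 change of the 7 genes was 0.58 in *Smarcc1* knockdown and 0.50 in *Smarca4* knockdown, and that of all tested genes was 0.06 in both. Both knockdowns were compared with the same Nons libraries, so their values against Nons are not independent of each other. In bulk RNA, fewer cells that express a gene and less of its RNA per cell cannot be told apart.

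**Figure D2:**
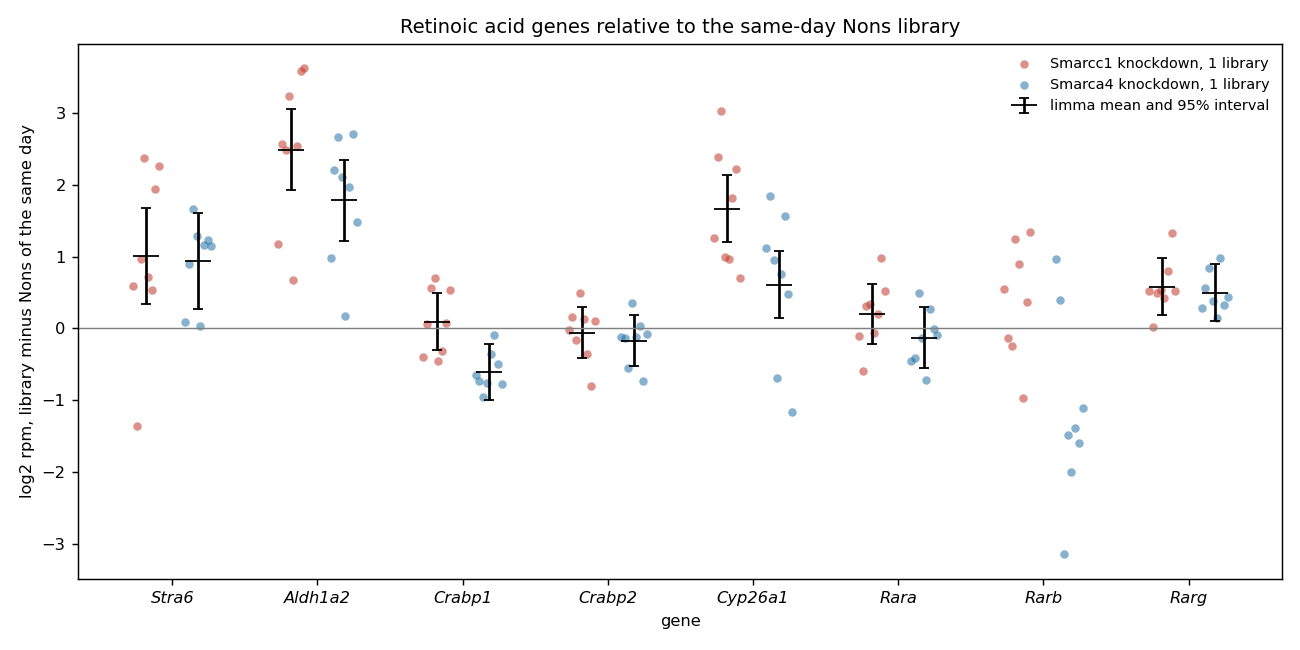
Log2 rpm of each knockdown library minus that of the Nons library of the same day, for 8 genes on the horizontal axis, with the limma mean over days and its 95% interval where the gene was tested. All 16 points of *Aldh1a2* and all 8 *Smarcc1* knockdown points of *Cyp26a1* lie above 0, and *Rarb* has no interval because it was not tested.

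*Stra6*, at chr9:58063788-58153996 (mm10), encodes the membrane receptor through which cells take up retinol from its carrier in plasma. In Nons it was at 1.24, 2.13, 0.891 and 0.693 rpm on days 4 to 7. It was at 1.87, 0.831, 1.74 and 3.57 rpm with Smarcc1.6, and at 2.04, 3.08, 3.43 and 3.31 rpm with Smarcc1.7. Of these 8 libraries 7 were above Nons of their day, the exception being Smarcc1.6 on day 5. All 8 *Smarca4* knockdown libraries were above Nons, 2 of them, both on day 4, by little (1.32 and 1.26 rpm against 1.24), and the highest were those of day 5 at 3.95 and 4.76 rpm. Pooled over days, the *Smarcc1* and *Smarca4* libraries overlapped. Within a day they overlapped on day 6 only. Both *Smarcc1* libraries were above both *Smarca4* libraries on days 4 and 7, and below both on day 5. The log2 change was 1.00 ± 0.31 (SE) in *Smarcc1* knockdown (adjusted *p* = 0.0573) and 0.94 ± 0.31 in *Smarca4* knockdown (adjusted *p* = 0.0965), and neither passed the threshold. With Smarcc1.6 left out, both passed it (adjusted *p* = 0.0124 and 0.0347). With Smarcc1.7 left out, the change in *Smarca4* knockdown passed it (adjusted *p* = 0.0394), and with libraries centred on the median gene the change in *Smarcc1* knockdown passed it (adjusted *p* = 0.0403). The entry overlaps *Ccdc33* on the opposite strand, which stood at 0 to 0.759 rpm, and since the use of strand in counting is not given in the sources used here, their reads cannot be told apart.

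*Aldh1a2*, at chr9:71215789-71296243, encodes the main retinaldehyde dehydrogenase of the early embryo and so the last step of retinoic acid synthesis. In Nons it fell from 2.29 rpm on day 4 to 0.861, 0.127 and 0.107 rpm on days 5, 6 and 7, the last 2 values being 2 reads each. In the Smarcc1.6 libraries it was at 5.16, 5.08, 0.712 and 1.01 rpm, and in the Smarcc1.7 libraries at 3.67, 4.98, 1.52 and 1.31 rpm. With Smarca4.4 it was at 4.52, 3.95, 0.806 and 0.457 rpm, and with Smarca4.6 at 2.58, 3.35, 0.826 and 0.296 rpm. Each of the 16 knockdown libraries was above Nons of its day, and in every series days 4 and 5 were above days 6 and 7. The log2 change was 2.48 ± 0.26 in *Smarcc1* knockdown (adjusted *p* = 7.42e-05) and 1.78 ± 0.26 in *Smarca4* knockdown (adjusted *p* = 0.00146). Because *Aldh1a2* passed the filter through these libraries, the values are given with no reading of the test. On the day with the most reads in Nons, day 4, the knockdowns were 1.13 to 2.25 times Nons, and on day 5 they were 3.90 to 5.90 times Nons. On days 6 and 7, against 2 reads, the ratios were 5.60 to 12.3 in *Smarcc1* knockdown, and the exact 95% counting intervals of these 4 ratios reached from 1.32 to 108. In *Smarca4* knockdown they were 2.78 to 6.49, with intervals from 0.455 to 59.2. These intervals cover counting error only.

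Under the alternatives the values of *Aldh1a2* are likewise given with no reading of the test. In *Smarcc1* knockdown its adjusted *p* was below the threshold under each alternative in which the gene was tested. The log2 changes were 1.06 to 2.60, the smallest with 1 rpm added to each value. In *Smarca4* knockdown the adjusted *p* was above the threshold with quantile normalization (log2 change 1.09, adjusted *p* = 0.0511) and below it under the others. *Aldh1a2* declined over the days as the pluripotency markers did, and 6 of the 10 pluripotency markers were called higher in *Smarcc1* knockdown and 4 of 10 in *Smarca4* knockdown, none lower in either. Over all days their summed level was 854 to 3963 rpm in Nons, 1007 to 4043 rpm in *Smarcc1* knockdown and 696 to 4209 rpm in *Smarca4* knockdown. These ranges span the fall over the days, so their overlap does not compare the groups within a day. Among 5 tested endoderm markers 3 were called higher in *Smarcc1* knockdown and 1 in *Smarca4* knockdown, with summed levels over 12 genes of 12.1 to 46.8 rpm in Nons, 15.1 to 66.6 rpm in *Smarcc1* knockdown and 8.95 to 42.1 rpm in *Smarca4* knockdown. Of 4 tested mesoderm markers 1 rose and 1 fell in *Smarcc1* knockdown and 1 rose in *Smarca4* knockdown, and of 7 tested neural markers 1 rose and 1 fell in either. Of 7 tested trophoblast markers 1 rose and 3 fell in *Smarcc1* knockdown, and 2 rose in *Smarca4* knockdown. Beside these counts, 7.54% of all tested genes were called higher and 3.08% lower in *Smarcc1* knockdown. In *Smarca4* knockdown the shares were 4.75% and 1.96%. The part of these marker lists in the change of *Aldh1a2* was not tested. The other retinaldehyde dehydrogenase genes, *Aldh1a1*, *Aldh1a3* and *Aldh8a1*, were too low to test, at no more than 4, 20 and 1 reads in any library.

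Of the 2 cellular binding protein genes, neither passed the threshold in either knockdown. *Crabp1* (chr9:54764748-54773110) and *Crabp2* (chr3:87948666-87953376) encode carriers that hold retinoic acid in the cytoplasm, CRABP2 being known to deliver it to the receptors. *Crabp1* was at 5.13, 6.08, 4.58 and 3.73 rpm in Nons. It was at 3.76 to 6.76 rpm in *Smarcc1* knockdown, with 5 of 8 libraries above Nons of their day. With both *Smarcc1* hairpins it was below Nons on day 4 (3.88 and 3.76 rpm) and above Nons on day 7 (6.09 and 5.43 rpm). In *Smarca4* knockdown it was at 2.19 to 5.69 rpm, and all 8 libraries were below Nons of their day. Its log2 change was 0.10 ± 0.18 in *Smarcc1* knockdown (adjusted *p* = 0.793) and -0.60 ± 0.18 in *Smarca4* knockdown (adjusted *p* = 0.0701), neither past the threshold. *Crabp2* was at 15.5, 24.0, 17.9 and 7.57 rpm in Nons, at 8.11 to 26.8 rpm in *Smarcc1* knockdown and at 7.17 to 24.4 rpm in *Smarca4* knockdown, ranges over all days that overlapped. On day 6 every knockdown library was below Nons, at 10.2 to 16.0 rpm, and on day 7 all but Smarca4.6 were above Nons. The log2 changes of *Crabp2* over days were -0.06 (95% interval -0.41 to 0.30) and -0.17 (-0.53 to 0.19), and changes within these intervals are not excluded.

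*Cyp26a1*, at chr19:37697808-37701528, encodes the P450 enzyme that clears retinoic acid and is induced by it. In Nons it was flat over the first 3 days, at 1.16, 1.06 and 0.954 rpm, and then stood at 3.30 rpm on day 7. In the Smarcc1.6 libraries it was at 2.78, 5.54, 7.74 and 6.59 rpm, and in the Smarcc1.7 libraries at 2.27, 3.75, 4.44 and 5.36 rpm. All 8 values were above Nons of their day, from 1.62 times on day 7 to 8.11 times on day 6. The log2 change in *Smarcc1* knockdown was 1.67 ± 0.22 (adjusted *p* = 0.000336), and it held under each alternative in which the gene was tested, between 1.16 and 1.91. With Smarca4.4 it was at 2.52, 3.81, 1.84 and 2.06 rpm, and with Smarca4.6 at 1.98, 3.14, 1.33 and 1.48 rpm. These 6 libraries of days 4 to 6 were above Nons and the 2 of day 7 below it, at 0.623 and 0.448 times Nons. Averaged over days the log2 change in *Smarca4* knockdown was 0.61 ± 0.22 (adjusted *p* = 0.125), which did not pass the threshold.

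**Figure D3:**
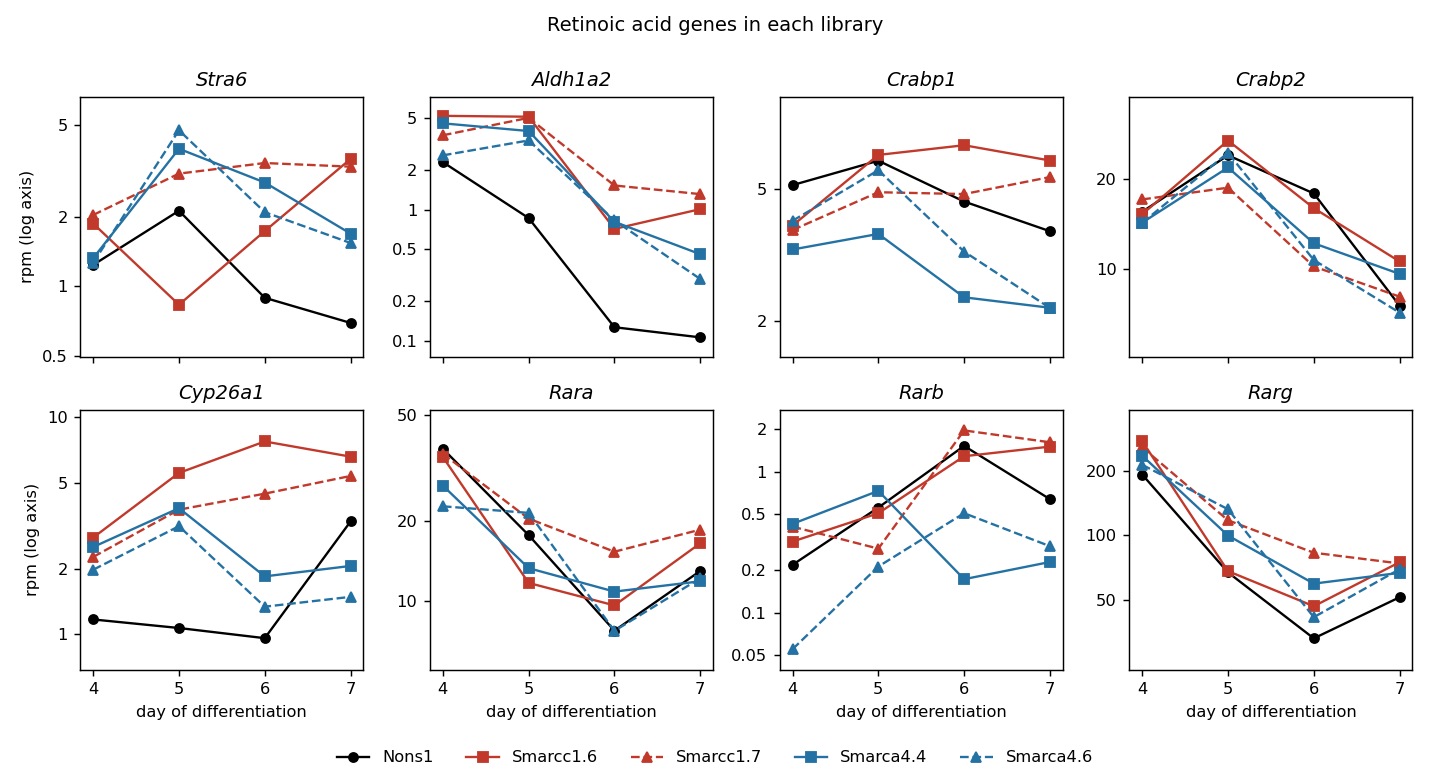
Levels in rpm on a log axis against day of differentiation for 8 retinoic acid genes, 1 line per culture series (Nons1 in black, *Smarcc1* hairpins in red, *Smarca4* hairpins in blue). The lines of *Aldh1a2* fall in all series with Nons lowest on each day, those of *Cyp26a1* are highest in *Smarcc1* knockdown on days 6 and 7, and those of *Rara* and *Rarg* fall steeply to day 6.

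The receptors are transcription factors that sit on their elements with or without the ligand. *Rarg* (chr15:102234938-102257517, minus strand), the most abundant of the 3, was at 192, 67.3, 33.2 and 51.6 rpm in Nons. All 16 knockdown libraries were above Nons of their day, at 46.9 to 274 rpm in *Smarcc1* knockdown and 41.7 to 235 rpm in *Smarca4* knockdown. The log2 changes were small and did not pass the threshold, 0.58 ± 0.18 in *Smarcc1* knockdown (adjusted *p* = 0.0637) and 0.50 ± 0.18 in *Smarca4* knockdown (adjusted *p* = 0.144). That in *Smarcc1* knockdown passed it when libraries were centred on the median gene (adjusted *p* = 0.041) or when Smarcc1.6 was left out (adjusted *p* = 0.0223). *Rara* (chr11:98927818-98974942) was at 37.4, 17.7, 7.76 and 13.002 rpm in Nons, and its knockdown libraries lay on both sides, 5 of 8 above Nons with *Smarcc1* hairpins and 2 of 8 with *Smarca4* hairpins. Its log2 changes were 0.20 (95% interval -0.22 to 0.62) and -0.13 (-0.55 to 0.29).

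*Rarb* (chr14:16430842-16575472, minus strand), whose promoter carries the repeat printed above, stood at 0.218, 0.557, 1.53 and 0.639 rpm in Nons. It was at 0.319, 0.508, 1.29 and 1.51 rpm with Smarcc1.6 and at 0.408, 0.285, 1.97 and 1.62 rpm with Smarcc1.7, with 5 of the 8 above Nons of their day. With Smarca4.4 it was at 0.427, 0.732, 0.173 and 0.229 rpm and with Smarca4.6 at 0.0549, 0.212, 0.508 and 0.296 rpm, with 6 of the 8 below Nons. On day 6 Smarca4.4 had 3 reads against 24 in Nons, a ratio of 0.113 with an exact 95% counting interval of 0.0218 to 0.372. When all entries were fitted without the filter, the log2 change of *Rarb* was 0.38 in *Smarcc1* knockdown (adjusted *p* = 0.966) and -1.17 in *Smarca4* knockdown (adjusted *p* = 0.315). The intervals of these low counts cover counting error only.

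The 2 knockdowns were also set against each other, a comparison that does not use Nons. Between them 2 of the 7 tested genes were called, both higher in *Smarcc1* than in *Smarca4* knockdown, beside 4.09% of all genes. *Cyp26a1* differed by 1.06 ± 0.18 on the log2 scale (adjusted *p* = 0.00557), and on days 6 and 7 every *Smarcc1* library was above every *Smarca4* library. *Crabp1* differed by 0.70 ± 0.15 (adjusted *p* = 0.0193), with the same separation on days 6 and 7. Neither call held in every fit that left out a hairpin. That of *Cyp26a1* was lost without Smarcc1.6 (adjusted *p* = 0.145), without Smarca4.4 (0.051) and without Smarca4.6 (0.16), and that of *Crabp1* was lost in each of the 4 fits that left out a hairpin (adjusted *p* = 0.0744 to 0.227), when culture series was entered as a block (the replicate block, 0.112) and with quantile normalization (0.0766). *Aldh1a2* was 0.70 ± 0.21 higher in *Smarcc1* knockdown, which did not pass the threshold (adjusted *p* = 0.0941). For *Stra6* (0.06, 95% interval -0.48 to 0.61) and *Rarg* (0.08, -0.24 to 0.41) the intervals covered 0. *Rarb*, in the fit without the filter, differed by 1.55 (adjusted *p* = 0.0623).

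Between day 4 and day 7, averaged over the 3 groups, 5 of the 7 tested genes were called, 4 lower and 1 higher. This is near the share of all tested genes, of which 64.5% were called. *Aldh1a2* fell by 3.19 ± 0.28 on the log2 scale (adjusted *p* = 7.12e-07), *Rarg* fell by 1.81 ± 0.20 (4.73e-06), *Rara* fell by 1.19 ± 0.21 (0.000296) and *Crabp2* fell by 0.87 ± 0.18 (0.000855). *Cyp26a1* rose by 0.80 ± 0.23 (adjusted *p* = 0.00925), a call that was lost with quantile normalization (0.33, adjusted *p* = 0.316). In Nons *Cyp26a1* went from 1.16 to 3.30 rpm and in *Smarcc1* knockdown from 2.78 and 2.27 to 6.59 and 5.36 rpm. The *Smarca4* knockdown libraries went from 2.52 and 1.98 rpm on day 4 to 2.06 and 1.48 rpm on day 7. *Stra6* (0.10, 95% interval -0.63 to 0.83) and *Crabp1* (-0.20, -0.63 to 0.23) were not called, and with quantile normalization *Crabp1* was (-0.62, adjusted *p* = 0.0426). *Rarb* was 1.48 higher on day 7 in the fit without the filter (adjusted *p* = 0.0429).

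The genes turned at different days. From day 4 to day 5, when 38.7% of all genes were called, *Rarg* fell by 1.35 and *Rara* fell by 0.94 on the log2 scale, while *Crabp2* rose by 0.60. The rise of *Crabp2* was lost without Smarcc1.6 (adjusted *p* = 0.0701), without Smarca4.4 (0.0741) and without Smarca4.6 (0.104). From day 5 to day 6, with 32.3% of all genes called, *Aldh1a2* fell by 2.40, *Rarg* fell by 0.92, *Rara* fell by 0.81 and *Crabp2* fell by 0.75. Without Smarca4.6 the falls of *Rarg* (adjusted *p* = 0.069), *Rara* (0.117) and *Crabp2* (0.0671) were lost. From day 6 to day 7, with 27.5% of all genes called, *Crabp2* alone of the 7 was called and fell by 0.72, a call lost without Smarca4.4 (adjusted *p* = 0.0596) and without Smarca4.6 (0.105). *Rara* and *Rarg* were then higher by 0.55 (adjusted *p* = 0.0679) and 0.45 (adjusted *p* = 0.105), changes that did not pass the threshold. Without Smarcc1.7 both did (adjusted *p* = 0.0489 and 0.0299), and with the replicate block *Rara* (0.0359) and *Cyp26a1* (a rise of 0.66, 0.018) did.

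Differences in slope over the days between a knockdown and Nons were tested directly. By limma none of the 7 genes was called for *Smarcc1* knockdown, where 0.94% of all genes were, and none for *Smarca4* knockdown, where 0.135% of all genes were. With limma-voom on recovered reads none was called either. At an unadjusted *p* under 0.05 there were 3 for *Smarcc1* knockdown, *Aldh1a2* (0.80 log2 units per day, adjusted *p* = 0.155), *Stra6* (0.68, adjusted *p* = 0.405) and *Crabp1* (0.36, adjusted *p* = 0.488), and 1 for *Smarca4* knockdown, *Cyp26a1* (-0.66, adjusted *p* = 0.4). The slope of *Aldh1a2* rests on 2 reads in Nons on each of days 6 and 7, and was -0.0043 with 1 rpm added to each value and -0.05 with quantile normalization.

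The other genes of the pathway that rose in a knockdown were a breakdown gene, 2 coactivator genes and genes known to respond to retinoic acid, and the one that fell was *Dhrs3*. Of 62 further pathway genes, 60 were in the table and 34 were tested. In *Smarcc1* knockdown 7 of the 34 were called, 6 higher and 1 lower, with a median log2 change of 0.32, and in *Smarca4* knockdown 6 were called, all higher, with a median of 0.16, beside medians of 0.06 over all tested genes in both. Of all tested genes 10.6% were called in *Smarcc1* and 6.71% in *Smarca4* knockdown. The count of 6 in *Smarca4* knockdown was 1 with the replicate block, 1 without Smarca4.4 and 1 without Smarca4.6. The 6 include *Meis1*, which passed the filter through the knockdown libraries.

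**Figure D4:**
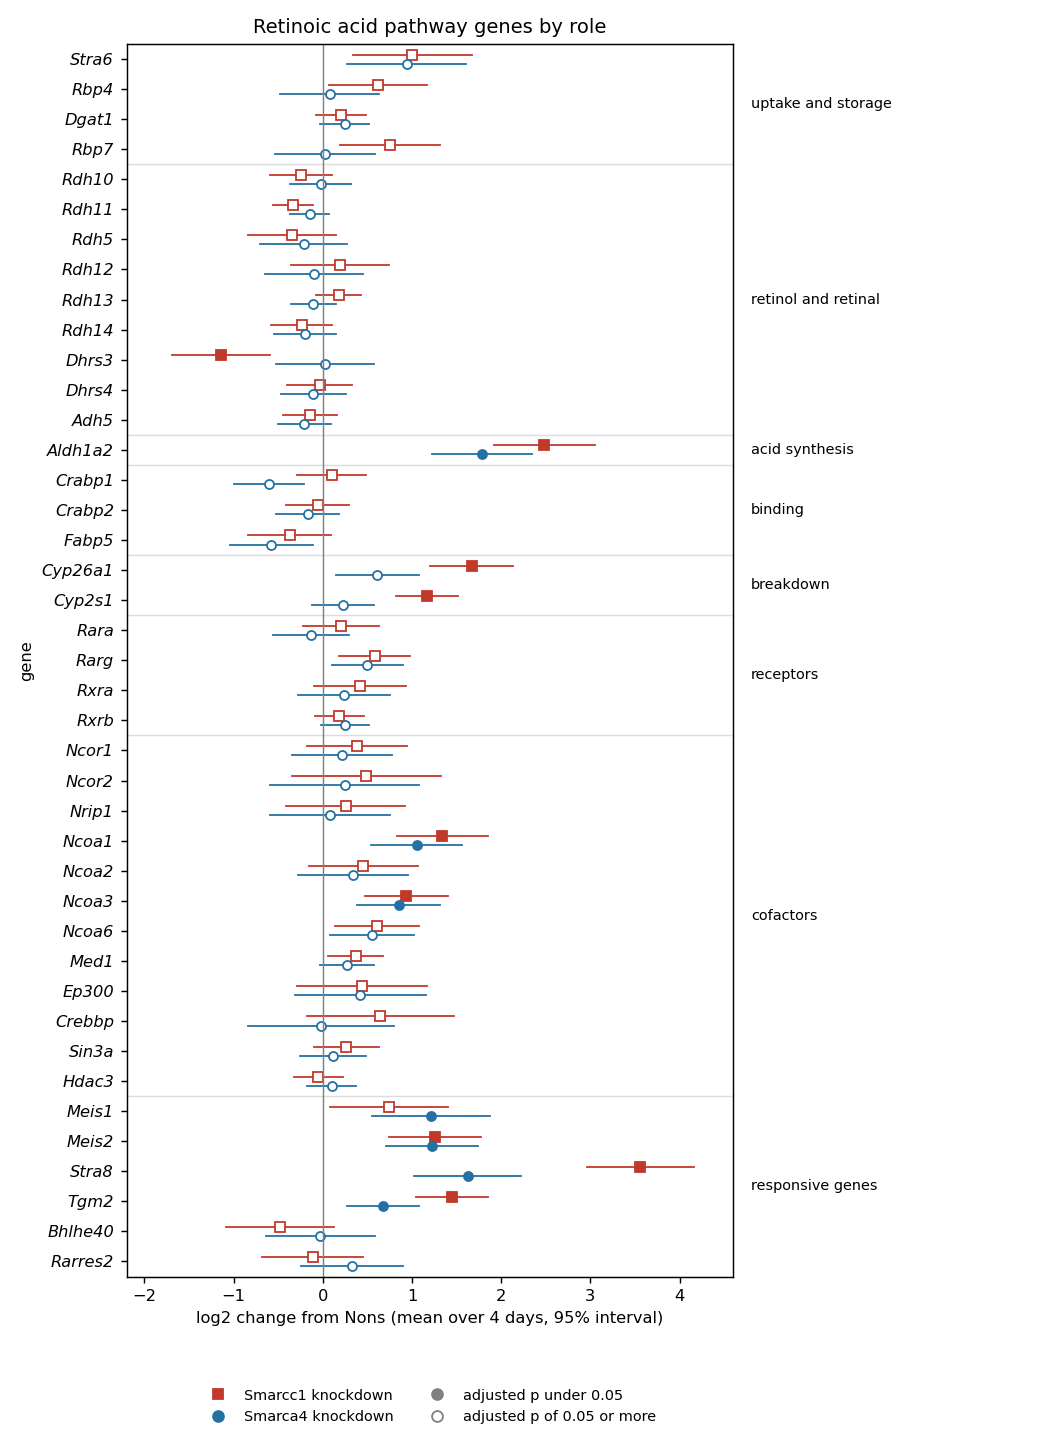
Log2 change from Nons with its 95% interval for the tested genes of the pathway, grouped by role, *Smarcc1* knockdown as red squares and *Smarca4* knockdown as blue circles, filled where the adjusted *p* was under 0.05. The filled symbol farthest to the right is *Stra8* in *Smarcc1* knockdown at 3.56, and the filled symbol left of 0 is *Dhrs3* in *Smarcc1* knockdown at -1.14.

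Among the genes of retinol handling and retinal formation, *Dhrs3* passed the threshold in *Smarcc1* knockdown. *Dhrs3*, which reduces retinal back to retinol and is itself induced by retinoic acid, was at 1.13, 4.05, 11.8 and 9.33 rpm in Nons, and at 0.816 to 5.61 rpm in *Smarcc1* knockdown, below Nons in all 8 libraries. It fell by 1.14 on the log2 scale (adjusted *p* = 0.0115) and was lower than in *Smarca4* knockdown by 1.16 (adjusted *p* = 0.00885). The first call was lost without Smarcc1.6 (adjusted *p* = 0.0552), without Smarca4.4 (0.0511), without Smarca4.6 (0.0513) and with the replicate block (0.0666). The second was lost without the same hairpins (adjusted *p* = 0.105, 0.0834 and 0.168) and with the replicate block (0.0689). In *Smarca4* knockdown the change of *Dhrs3* was 0.03 (adjusted *p* = 0.973). Of the breakdown genes, *Cyp26b1* and *Cyp26c1* were too low to test. *Cyp2s1*, a P450 gene that can act on retinoic acid, was at 3.80 to 10.5 rpm in Nons and rose to 9.83 to 16.8 rpm in *Smarcc1* knockdown, above Nons in all 8 libraries (1.16, adjusted *p* = 0.000536), and was 0.94 above *Smarca4* knockdown (adjusted *p* = 0.00168), a difference lost without Smarca4.4 (0.051) and without Smarca4.6 (0.0784).

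Neither *Rxra* (0.42 in *Smarcc1* and 0.24 in *Smarca4* knockdown, adjusted *p* = 0.337 and 0.646) nor *Rxrb* (0.18 and 0.25, adjusted *p* = 0.428 and 0.311), the tested partners of the RARs, passed the threshold, and *Rxrg* was too low to test. Among 12 cofactors of nuclear receptors 2, the coactivator genes *Ncoa1* and *Ncoa3*, were called in either knockdown, where 10.6% (*Smarcc1*) and 6.71% (*Smarca4*) of all tested genes were called. *Ncoa1* rose by 1.34 (adjusted *p* = 0.00256) in *Smarcc1* and 1.05 (adjusted *p* = 0.0181) in *Smarca4* knockdown. *Ncoa3* rose by 0.94 (adjusted *p* = 0.0132) and 0.85 (adjusted *p* = 0.0328). Both were above Nons of their day in all 16 knockdown libraries. The call of *Ncoa1* in *Smarca4* knockdown and both of *Ncoa3* were lost with the replicate block (adjusted *p* = 0.115 for *Ncoa1*, 0.161 and 0.0735 for *Ncoa3*). Without Smarca4.4 or Smarca4.6 those 3 calls were lost too, at adjusted *p* = 0.168 and 0.0901 for *Ncoa1*, 0.255 and 0.149 for *Ncoa3* in *Smarca4* knockdown, and 0.0619 and 0.0625 for *Ncoa3* in *Smarcc1* knockdown. That of *Ncoa3* in *Smarca4* knockdown was also lost with the filter at 10 rpm (0.0598), with limma-voom (0.0573) and without the smallest library (0.0552).

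Of 22 further genes known to respond to retinoic acid 8 were tested. In *Smarcc1* knockdown 3 rose and 1, *Dhrs3*, fell, and in *Smarca4* knockdown 4 were called, all higher, where 10.6% and 6.71% of all tested genes were called. The 4 include *Meis1*, which passed the filter through the knockdown libraries and is counted with no reading of its test. *Stra8*, named for its induction by retinoic acid and known as the trigger of meiosis in germ cells, was at 12.8, 19.0, 8.84 and 5.06 rpm in Nons. It was at 27.98, 307, 310.5 and 186 rpm with Smarcc1.6 and at 25.3, 150.4, 173 and 132 rpm with Smarcc1.7. With Smarca4.4 it was at 7.09, 49.8, 31.0 and 32.4 rpm and with Smarca4.6 at 10.1, 69.6, 76.0 and 51.4 rpm, so that these libraries were below Nons on day 4 and above it from day 5. The log2 change of *Stra8* was 3.56 ± 0.28 in *Smarcc1* knockdown (adjusted *p* = 7.79e-06) and 1.63 ± 0.28 in *Smarca4* knockdown (adjusted *p* = 0.00403, lost without Smarca4.6 at 0.0827), and the knockdowns differed by 1.93 ± 0.23 (adjusted *p* = 0.000565).

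*Tgm2*, which encodes transglutaminase 2, was at 1.75, 1.87, 5.66 and 30.1 rpm in Nons and above Nons of its day in all 16 knockdown libraries, reaching 80.3 and 79.95 rpm in *Smarcc1* and 55.03 and 50.7 rpm in *Smarca4* knockdown on day 7. It rose by 1.45 (adjusted *p* = 0.000346) in *Smarcc1* knockdown and 0.68 (adjusted *p* = 0.04996) in *Smarca4* knockdown, the second of which was lost with the replicate block (0.269), with limma-voom (0.105), with no filter (0.0646), with 1 rpm added (0.0635), without the smallest library (0.0676), without Smarca4.4 (0.289) and without Smarca4.6 (0.217). The homeobox gene *Meis2* rose by 1.25 (adjusted *p* = 0.00443) and 1.22 (adjusted *p* = 0.00866, lost with the replicate block at 0.0708 and without Smarca4.4 at 0.0727). *Meis1* passed the filter through the knockdown libraries, its mean in Nons alone being below it, so that its values are given with no reading of the test. Its log2 change was 1.21 in *Smarca4* knockdown (adjusted *p* = 0.0325) and 0.74 in *Smarcc1* knockdown (adjusted *p* = 0.164). The first was past the threshold neither with the replicate block (0.209), with 1 rpm added (0.0668), with quantile normalization (0.276), without Smarca4.4 (0.203) nor without Smarca4.6 (0.107). *Bhlhe40*, *Rarres2* and *Nrip1* were tested and not called in either knockdown. The remaining genes of the list did not reach the filter.

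**Figure D5:**
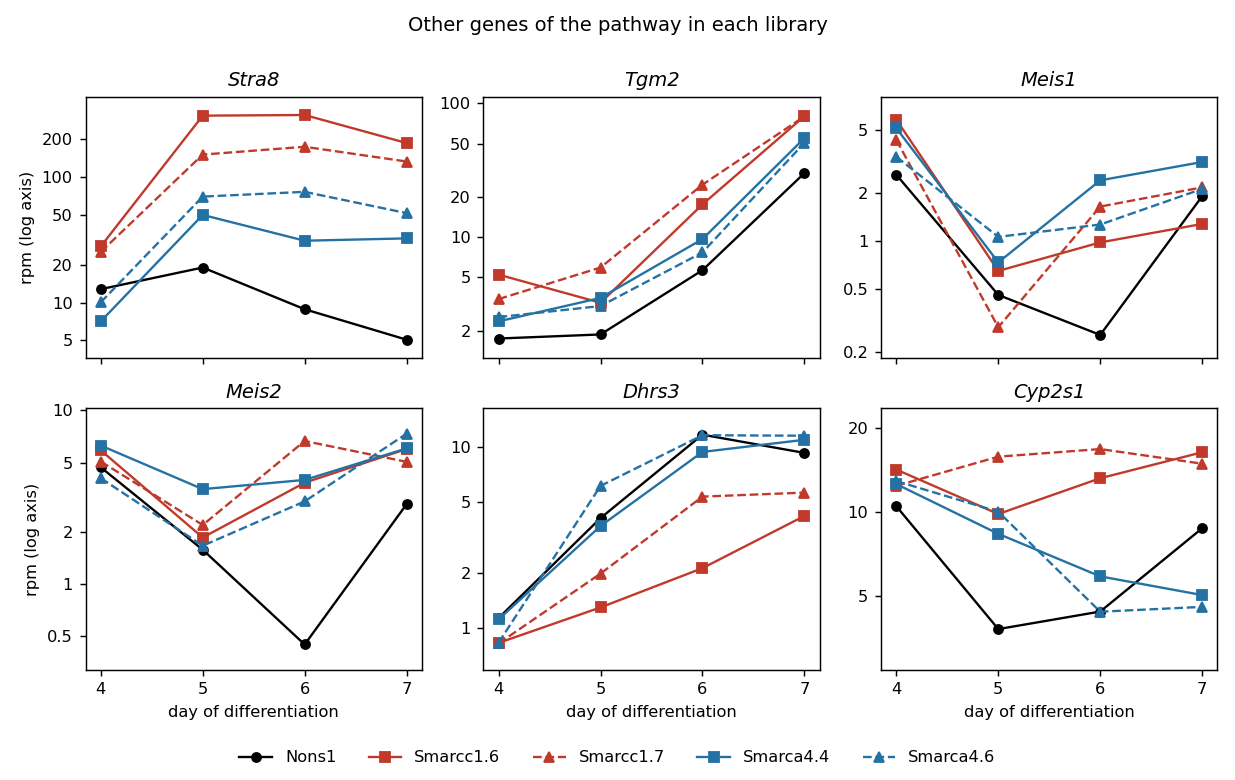
Levels in rpm on a log axis against day for 6 other genes of the pathway, with 1 line per culture series as in the plot of the 8 genes. *Stra8* is highest in *Smarcc1* knockdown on each day and lies above Nons in *Smarca4* knockdown from day 5. *Dhrs3* stays below Nons in both *Smarcc1* hairpins, and *Tgm2* is highest on day 7 in all series.

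From day 4 to day 7, 19 of the 34 further genes were called, 10 higher and 9 lower, where 64.5% of all genes were called, with a median change of -0.09 beside 0.08 over all tested genes. Beside *Stra6*, 3 genes of retinol uptake and storage were tested and all 3 rose, where 35.7% of all genes were called higher, among them *Rbp4* (2.77), which encodes the carrier of retinol in plasma. The other calls, of *Dgat1* and *Rbp7*, were lost with quantile normalization (adjusted *p* = 0.11 and 0.0645). *Dhrs3* rose by 3.06, *Rdh11* by 1.92, *Tgm2* by 4.26 and *Bhlhe40* by 3.49, and *Dhrs4* fell by 2.01. Of the 12 cofactors 4 fell, *Ncor1* by 1.16, *Ncoa3* by 1.16, *Crebbp* by 1.20 (lost without Smarca4.4, adjusted *p* = 0.0626) and *Sin3a* by 0.72 on the log2 scale. Over all tested genes 28.8% were called lower between these days.

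The genes whose log2 values were most like those of each retinoic acid gene over the 20 libraries are given as a description, since all libraries share the days and the 5 culture series. *Rarg* was most like *Fancg* (Pearson r = 0.985), *Plk3* (0.983) and *Mybl2* (0.982), and *Rara* most like *Atxn7l3* (0.960), *Zfp1* (0.954) and *Gpatch1* (0.953). *Rara* and *Rarg* correlated with each other at 0.932. *Crabp2* was most like *Dut* (0.965), *Erh* (0.958) and *Gm10131* (0.952), and *Aldh1a2* most like *4930539E08Rik* (0.960), *Slc23a1* (0.955) and *Liph* (0.951). Likeness was lower for the genes with less of a trend over days. *Stra6* was most like *Tmco7* (0.883), *Sh2b2* (0.877) and *Tmem143* (0.874), *Crabp1* like *Prps1* (0.827), *Ptgis* (0.818) and *Lck* (0.815), and *Cyp26a1* like *Hpse* (0.823), *Ephx2* (0.817) and *Aifm2* (0.805).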

How the data were processed

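RNA-seq was performed on male C57/Bl6 mESCs on 4 days of differentiation. The 20 libraries of 5 hairpins were analysed, and those of the second Nons series were not analysed here. Per the study's methods, the authors trimmed reads with trim_galore, used tophat or HISAT2 for mapping (genome build mm10), and quantified genes in SeqMonk. They deposited log2 rpm values, in which read numbers are corrected for library size, with no pooling of replicates. The annotation release and the use of strand are not given in the sources used here.

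The lowest value of a library equals 0.9 of a read, which gave whole reads (tolerance 0.05, for values below 1000 reads) and library totals. Totals of 6829596 to 27472885 reads make 3 reads worth 0.109 to 0.439 rpm. Genes whose mean log2 rpm was 0 or higher were tested in R 4.3.3 with the limma-trend method of limma 3.58.1, using 12 means (knockdown by day), 8 residual degrees of freedom, two-sided tests and Benjamini-Hochberg adjustment over all genes tested, threshold 0.05. All adjusted *p* and SE values are from this fit unless another is named. The script was tested on simulated data.

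The spread is that between the hairpins of a knockdown, whose cultures the labels do not describe as separate beyond the hairpin, so that *p* values measure the spread between these libraries. Hairpin numbers pair nothing across groups. The main fit treats the 4 days of a culture series as independent of each other. It called 1412 genes in *Smarcc1* and 892 in *Smarca4* knockdown. With series as replicate block (correlation 0.217) these were 605 and 258. Groups came from the sample titles, since the genotype label names the *Smarca4* hairpin libraries as *Smarcc* knockdown. Exon lengths were from GENCODE M21, and start windows from RefSeq (GRCm38.p6).

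The 8 genes, the pathway lists, and the pluripotency, endoderm, mesoderm, neural and trophoblast marker lists were chosen with earlier results of these data known. Some genes of the pathway are not reported here and are in none of the list counts. Text names were taken from the 8 genes, the targeted genes, list members past the threshold (up to 5 per list and comparison by size of change) and the 3 genes most correlated with each tested gene. Genes of the lists named outside this rule, such as *Rxra*, *Rxrb*, *Bhlhe40* and those too low to test, were added after their values were seen. Alternatives were other filters, a pseudocount, other scalings, limma-voom on the recovered reads, a replicate block and leaving out libraries.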

Additional observations from a re-analysis of the deposited data

Results flagged for a closer look

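*Stra8* differed between *Smarcc1* knockdown and Nons in its course over the days. Its slope was 1.29 log2 units per day higher in *Smarcc1* knockdown (limma, adjusted *p* = 0.033), and it was the one gene among the tested pathway genes past the threshold for this difference. In *Smarca4* knockdown its slope was higher than in Nons by a like amount, 1.17 (limma, adjusted *p* = 0.118), which did not pass the threshold. *Stra8* was also higher on day 7 than on day 4 with both *Smarca4* hairpins. In Nons *Stra8* went from 12.8 rpm on day 4 to 5.06 rpm on day 7, with Smarcc1.6 from 27.98 to 186 rpm and with Smarcc1.7 from 25.3 to 132 rpm, so that both hairpins rose where Nons fell. The call was lost with the filter at 10 rpm (adjusted *p* = 0.073), with centring (0.0638), with quantile normalization (0.0592), with limma-voom (0.0536) and without each hairpin in turn (0.0744 to 0.224, the latter without Smarcc1.6), with the slope between 1.24 and 1.36 in these fits.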

How the results depend on the processing

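Of 494 values of the 8 genes under alternatives, 452 kept their direction and their side of the threshold. With the filter at a mean of 10 rpm, which leaves 3 of the 8 genes tested, 0 of them were called in *Smarcc1* knockdown, 0 in *Smarca4* knockdown, 0 between the knockdowns and 3 from day 4 to day 7 (limma). Genes called over the whole table were then 491, 266, 182 and 5538, for the 3 daily steps 3207, 2617 and 2430, and for the slopes 21 and 4. Centring gave 4 of the 8 genes in *Smarcc1* knockdown, and turned the change of *Stra6* from day 4 to day 7 to -0.077. It moved the median change of all genes between these days from 0.083 to -0.093. Quantile normalization gave 0 of the 8 genes in *Smarca4* knockdown and 1 between knockdowns, slopes of 22 and 4 genes, and reversed values for *Stra6* (-0.081 between knockdowns and -0.28 over days), for *Crabp1* in *Smarcc1* knockdown (-0.076) and for the slope of *Aldh1a2* (-0.048). With 1 rpm added the slopes called 67 and 6 genes and the slope of *Aldh1a2* was -0.0043. Without a filter the *Smarca4* slope called 11 genes, and without the smallest library 1067 genes differed between knockdowns. The causes of these moves, beyond the number of genes tested, were not tested.

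With culture series as replicate block (correlation 0.217), 605, 258 and 105 genes were called in *Smarcc1* knockdown, in *Smarca4* knockdown and between them, 292 and 52 for the slopes, and of the 8 genes 1 between knockdowns and 3 from day 6 to day 7.

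Leaving out each hairpin gave 2 to 4 of the 8 genes in *Smarcc1* knockdown, 1 to 2 in *Smarca4* knockdown, 0 to 1 between them, 5 over days 4 to 7, 2 to 3, 1 to 4 and 0 to 3 in the daily steps, and 0 for the slopes. All genes called were 843 to 1288, 277 to 656, 49 to 263, 7586 to 8118, 3179 to 5030, 2869 to 3287, 1061 to 4031, and 0 to 39 and 0 for the slopes. The lowest of these were without Smarcc1.7 (843), Smarca4.6 (277, 3179, 2869 and 1061) and Smarcc1.6 (49). Some directions turned without 1 hairpin. Between knockdowns the change was -0.30 to 0.42 for *Stra6* and -0.10 to 0.27 for *Rarg*, each lowest without Smarcc1.7 and highest without Smarcc1.6, and -0.062 to 0.29 for *Crabp2*, lowest without Smarcc1.6. In *Smarcc1* knockdown it was -0.037 to 0.23 for *Crabp1* and -0.23 to 0.12 for *Crabp2*, each lowest without Smarcc1.6, and -0.0094 to 0.41 for *Rara*, lowest without Smarcc1.7. No Nons series could be left out, since 1 was analysed. Depth limits *Rarb*, with 1 to 33 reads, and *Aldh1a2* in Nons, with 2 reads on days 6 and 7.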
